A study of Mus musculus with 11 samples.

Results

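Quiescent and adventitial fibroblast markers are genes that dermal fibroblasts carry at rest, and here they were the 10 genes Pi16, Dpt, Clec3b, Cd34, Ly6c1, Gsn, Myoc, Inmt, Apod and Ccdc80, of 47643 genes in the deposited table of RPKM values, which scale reads to gene length and to the mapped reads of a library. The members were found by gene symbol, each matched 1 row, and all 10 were among the 11979 genes that reached 1 RPKM in at least 2 libraries. The members were chosen by name from a list drawn up with the difference between wounds and unwounded skin in these libraries known, so that difference is described below by values, fold changes and standard errors, without p-values. Counts of members past the threshold for all genes in it are no independent evidence, whereas the differences between genotypes were tested.

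The libraries came from live CD140a+ CD45- CD11b- F4/80- cells, a surface phenotype of fibroblasts, sorted from back skin and from excisional wounds of mice 9 to 12 weeks old with a mixed CD-1 and C57Bl/6 background. Act mice carry the gene for the activin A subunit, INHBA, under the keratin 14 promoter, which is active in keratinocytes, and WT mice were their littermates. Both genotypes were sampled in unwounded skin (NS), from which the underlying fat had been removed, and at day 5 after wounding (5dw), with 3 libraries each of WT NS, Act NS and WT 5dw and 2 of Act 5dw, which carry the numbers 1 and 3. Each library held RNA of 3 mice, so the spread between libraries is that between pools.

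The connective tissue around vessels and under the skin holds fibroblasts that express Pi16, Cd34 and Dpt. They are regarded as a resting population from which more specialised fibroblasts can arise, and activated fibroblasts are known for a different, matrix-producing programme. Some of the 10 genes encode surface proteins of these cells, others matrix-associated proteins, an actin-severing protein, or proteins that handle lipids and small molecules.

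Fibroblast markers were high in all 11 libraries, with 8 of 8 fibroblast markers averaging above 1 RPKM in both tissues and Pdgfra, which encodes the sort marker CD140a, at 49.8 to 65.3 RPKM in NS and, without overlap, 29.6 to 37.3 in 5dw. The summed RPKM of 10 endothelial markers was 23.3 to 40.6 in NS and 22.5 to 29.6 in 5dw, with Cdh5 at most 1.99 in any library, and the leukocyte gene Ptprc did not exceed 0.0498. Markers of Schwann cells and nerve summed to 5.45 to 10.7 RPKM in NS and 0.811 to 1.06 in 5dw, those of pericytes and smooth muscle to at most 22.0, and those of adipocytes to at most 2.45. Of 10 immune markers 9 were found, and they summed to 7.56 to 39.7 RPKM in NS and 61.5 to 113.8 in 5dw, with Cd3e alone at 2.94 to 33.9 and 55.5 to 104.7. Keratinocyte transcripts were present throughout, the 10 keratinocyte and hair follicle markers summing to 1285 to 4787 RPKM in NS and 125 to 1052 in 5dw. The recovered depth ran from 18649321 to 39702138 mapped reads, with the deepest library holding 2.13 times the reads of the shallowest. The WT 5dw libraries were the deepest, at 38740404 to 39702138 reads, and those of the other groups held at most 29718956. Depth therefore differed along with group in each comparison with WT 5dw. Mouse Inhba was 6.75, 6.93 and 3.40 RPKM in WT NS and 36.3, 59.1 and 91.2 in Act NS (log2 fold change 3.30, SE 0.36, limma adjusted p = 0.0128), without overlap. In wounds it was 20.57, 15.8 and 23.98 RPKM for WT, with 26.2 and 50.2 for Act (0.86, SE 0.41, limma adjusted p = 1). The part of transgene reads in these values was not tested.

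Together the members made up 3.13 to 3.86% of the summed RPKM in the 6 NS libraries and 0.604 to 0.991% in the 5 wound libraries. Without Gsn the shares were 1.44 to 1.79% and 0.473 to 0.831%. In these sorted pools, fewer cells with the programme and less RNA of it per cell cannot be told apart.

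**Figure D1:**
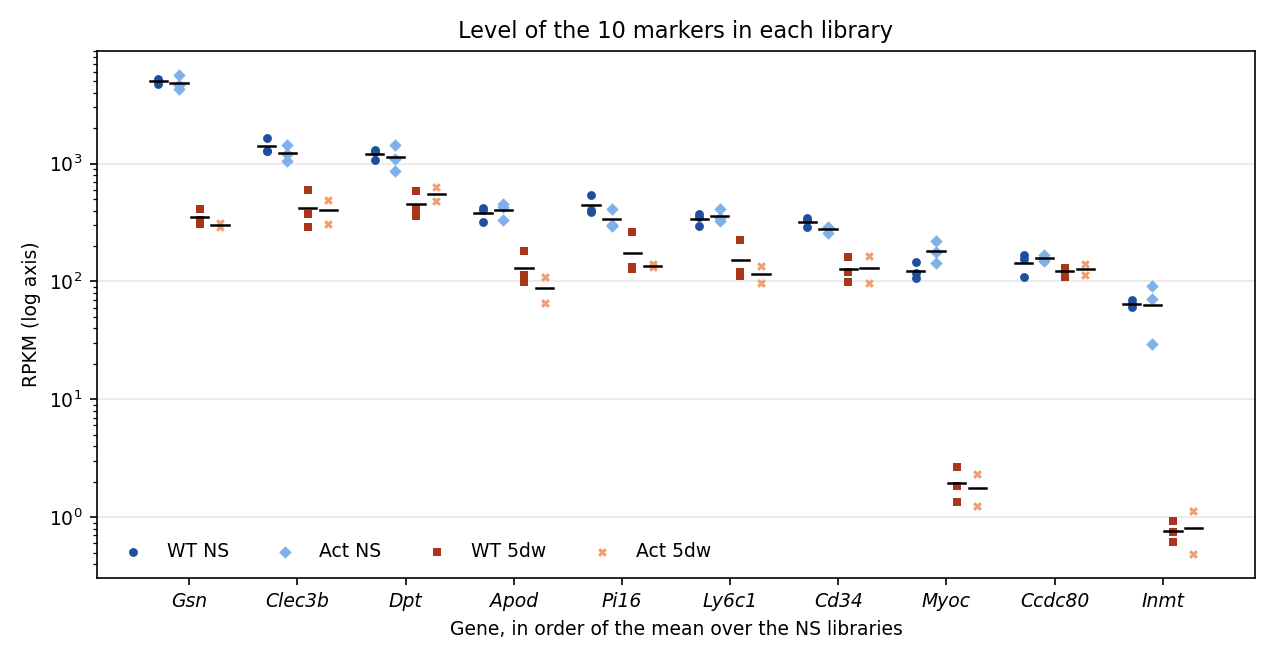
Level of each of the 10 genes in each library, in RPKM on a log axis, with genes in order of their mean in NS, points for libraries and black lines for group means. Myoc and Inmt sit between 29.3 and 220.7 RPKM in unwounded skin and between 0.488 and 2.64 in wounds, whereas the libraries of Ccdc80 overlap between NS and 5dw.

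Levels per length placed Gsn first of the 11979 genes in NS by mean RPKM. Clec3b ranked 14, Dpt 20, Apod 103, Pi16 107, Ly6c1 115, Cd34 139, Myoc 278, Ccdc80 280 and Inmt 602. Among neighbours in this order, the NS libraries overlapped between Clec3b and Dpt, between Apod, Pi16, Ly6c1 and Cd34, and between Myoc and Ccdc80. In wounds Dpt had the highest mean of the 10 (rank 70) and Gsn followed Clec3b (rank 123), with Myoc at rank 8116 and Inmt at rank 10676. The 3 leading members in wounds, Dpt, Clec3b and Gsn, overlapped with their neighbours in the order, and so did the 5 from Pi16 to Apod.

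The 2 genes with the largest differences between NS and wounds, Myoc and Inmt, and the most abundant, Gsn, are shown by sequence upstream of their transcription start (RefSeq, GRCm38.p6). For Myoc and Gsn it runs up to the RefSeq start, and for Inmt up to the GENCODE start, 53 bases before the RefSeq one, because the bases between lie in an annotated exon. Each runs 5′ to 3′ on the strand of its gene, and the capitals mark TATAAA, the core of the TATA box, and CAGCTG, an E-box. The windows are chr1:162638900-162639149 on the plus strand for Myoc, chr6:55175044-55175240 on the minus strand for Inmt, and chr2:35256109-35256358 on the plus strand for the most upstream of 3 RefSeq starts of Gsn.
Myoc: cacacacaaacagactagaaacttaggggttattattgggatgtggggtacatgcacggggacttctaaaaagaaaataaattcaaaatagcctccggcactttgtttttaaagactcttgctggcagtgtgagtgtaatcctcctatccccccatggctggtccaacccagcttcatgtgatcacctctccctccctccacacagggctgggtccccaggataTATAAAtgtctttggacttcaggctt
Inmt: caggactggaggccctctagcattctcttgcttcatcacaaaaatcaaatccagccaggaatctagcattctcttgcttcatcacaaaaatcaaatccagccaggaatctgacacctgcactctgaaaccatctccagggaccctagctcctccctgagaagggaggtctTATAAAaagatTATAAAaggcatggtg
Gsn: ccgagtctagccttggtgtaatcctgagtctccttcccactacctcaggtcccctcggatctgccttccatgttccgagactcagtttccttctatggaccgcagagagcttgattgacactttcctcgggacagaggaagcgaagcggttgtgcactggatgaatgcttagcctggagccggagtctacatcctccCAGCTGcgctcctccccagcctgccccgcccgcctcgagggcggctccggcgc

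Myoc held TATAAA 26 bases before its RefSeq start. Inmt held it at 80 and 69 bases before its RefSeq start, which is 27 and 16 bases before the more upstream start of the GENCODE annotation. Another member, Ly6c1, held it 143 bases before the second of its RefSeq starts. Over all 32851 RefSeq windows, 12.4% held TATAAA on either strand within 250 bases, and 1.84% held it on the gene strand between 20 and 35 bases before the start. Among windows of the tested genes, to which the members belong, 6.86% held TATAAA within 250 bases. CAGCTG lay in 6 of the 11 windows of the 8 members that matched a RefSeq entry (Dpt, Ly6c1, Gsn and Inmt), in 13.0% of all windows and in 11.9% of those of tested genes. Windows of the same gene can overlap, as those of Ly6c1 do, and share a match. The letters searched for AP-1 (TGANTCA), TEAD (GGAATG), FOXO (TGTTTAC) and the SMAD palindrome (GTCTAGAC) were in none of the 11, against 6.75%, 12.6%, 3.17% and 0.167% of all windows. Among windows of tested genes these shares were 4.82%, 10.9%, 2.02% and 0.169%. These matches describe the sequence and mark no bound site.

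Transcripts of Pi16, Cd34 and Ly6c1, whose products are found at the surface of adventitial fibroblasts, were lower in each wound library than in any NS library. Pi16, a peptidase inhibitor whose gene marks the adventitial population (ENSMUSG00000024011, chr17:29317680-29330593 in GRCm38), was 544.5, 385.7 and 400.6 RPKM in WT NS and 299.1, 415.8 and 298.2 in Act NS. Its wound values were 132.3, 262.6 and 128.0 for WT, with 132.1 and 140.5 for Act. The lowest NS library was therefore 1.14 times the highest wound library, WT 5dw 2, which held 2.02 times the mean of the other 2 WT 5dw libraries. The log2 fold change on the log2(RPKM + 0.5) scale was -1.41 (SE 0.27) in WT and -1.29 (SE 0.30) in Act.

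Cd34, a sialomucin of stem cells, endothelium and adventitial fibroblasts (chr1:194938819-194961279), was 289.4, 331.9 and 345.1 RPKM in WT NS and 260.4, 291.4 and 284.9 in Act NS. Wounds had 120.9, 160.8 and 98.8 RPKM for WT, with 165.5 and 96.2 for Act. The tissues did not overlap, and the lowest NS library was 1.57 times the highest wound library. On the log2 scale the difference was -1.37 (SE 0.22) in WT and -1.14 (SE 0.24) in Act. Of the 10 endothelial markers, Tek, the most abundant in NS, was lower in wounds without overlap (13.9 to 29.4 RPKM in NS and 4.74 to 10.2 in wounds). Pecam1, the most abundant in wounds, was higher there without overlap (3.38 to 5.66 and 11.5 to 14.0), and the other 8 overlapped between the tissues. Their part in the difference of Cd34 was not tested.

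Ly6c1, a GPI-anchored Ly6 family protein (chr15:75044018-75048830, minus strand), was 297.6, 370.3 and 349.2 RPKM in WT NS and 327.5, 415.0 and 342.6 in Act NS. Its wound values were 119.4, 222.8 and 111.1 for WT, with 135.0 and 97.2 for Act, and WT 5dw 2 was again the highest. This gave a log2 fold change of -1.23 (SE 0.25) in WT and -1.65 (SE 0.28) in Act. Of the 31-base stretches of its annotated transcripts, 46.8% also occur in another gene and 33.0% in its neighbour Ly6c2, so the reads counted for Ly6c1 are uncertain. Ly6c2 was 0.0712 to 0.246 RPKM over the 11 libraries. Ly6a, another gene that shares stretches with Ly6c1, was 632.6 to 884.4 RPKM in NS and 276.8 to 602.9 in wounds, and was also highest of the wound libraries in WT 5dw 2. The part of Ly6a reads in the Ly6c1 values was not tested.

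Matrix-associated members differed among themselves. Dpt encodes dermatopontin, which binds decorin and collagen fibrils (chr1:164796644-164824266), and was 1302, 1259 and 1080 RPKM in WT NS and 863.9, 1452 and 1097 in Act NS. Wound libraries held 417.5, 582.4 and 361.1 for WT, with 636.1 and 478.5 for Act. The groups did not overlap, and the log2 fold change was -1.44 (SE 0.23) in WT and -1.01 (SE 0.26) in Act.

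Clec3b, which encodes the plasminogen-binding protein tetranectin (chr9:123150946-123157432), was 1665, 1281 and 1275 RPKM in WT NS and 1044, 1438 and 1212 in Act NS. The wound values were 371.8, 594.5 and 287.6 for WT, with 491.3 and 309.4 for Act. Each NS library was at least 1.76 times each wound library, with a log2 fold change of -1.80 (SE 0.27) in WT and -1.65 (SE 0.30) in Act.

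Ccdc80, a secreted matrix-binding protein (chr16:45093402-45128077), was the member with the smallest difference. In NS it was 155.0, 109.3 and 167.0 RPKM for WT, with 168.0, 156.1 and 148.3 for Act. In wounds the values were 130.9, 125.1 and 110.1 for WT, with 139.9 and 113.8 for Act. The tissues overlapped, because WT NS 2 lay below all 5 wound libraries. Its log2 fold change was -0.22 (SE 0.17) in WT and -0.32 (SE 0.19) in Act, close to the medians over all genes of -0.40 and -0.31. With median-ratio scaling, which sets the typical gene to no difference, it was 0.26 and 0.05.

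Gsn encodes gelsolin, which severs and caps actin filaments (chr2:35256380-35307892, 21 merged exon stretches), and was 5244, 4729 and 5077 RPKM in WT NS and 4308, 5686 and 4617 in Act NS. In wounds it was 309.9, 413.1 and 333.1 for WT, with 315.3 and 287.5 for Act. The wound libraries lay close together, and the NS mean was 14.9 times the wound mean. That is a log2 fold change of -3.84 (SE 0.16) in WT and -4.00 (SE 0.18) in Act.

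Among the members that handle lipids and small molecules, Apod encodes apolipoprotein D, a lipocalin that carries small lipids (chr16:31296192-31314808, minus strand), and was 422.6, 400.5 and 321.2 RPKM in WT NS and 426.4, 457.7 and 332.7 in Act NS. Wound values were 112.5, 179.8 and 99.8 for WT, with 109.7 and 65.0 for Act, below every NS library. The log2 fold change was -1.58 (SE 0.26) in WT and -2.24 (SE 0.29) in Act.

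Inmt, an N-methyltransferase of indoleamines (chr6:55170626-55175043, minus strand), was 64.2, 60.2 and 69.0 RPKM in WT NS and 71.3, 90.7 and 29.3 in Act NS. Wound libraries held 0.614, 0.742 and 0.919 for WT, with 1.13 and 0.488 for Act, which are 20 to 57 reads a library. The NS mean was 82.4 times the wound mean, and Act NS 3 stood below the other NS libraries. Its log2 fold change was -5.69 (SE 0.34) in WT and -5.52 (SE 0.38) in Act, values that the pseudocount of 0.5 pulls toward 0.

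Myoc encodes myocilin, a secreted olfactomedin-domain protein best known from the eye (chr1:162639155-162649693), and was 145.8, 118.3 and 106.0 RPKM in WT NS and 144.5, 220.7 and 176.6 in Act NS. In wounds it was 1.35, 2.64 and 1.83 for WT, with 2.33 and 1.24 for Act, from 66 to 212 reads a library. The lowest NS library was 40.2 times the highest wound library. The log2 fold change was -5.69 (SE 0.24) in WT and -6.33 (SE 0.27) in Act. Some of its reads could belong to Myocos, whose exons overlap it on the opposite strand, and the same holds for Pi16 and Cd34 with an antisense transcript each.

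**Figure D2:**
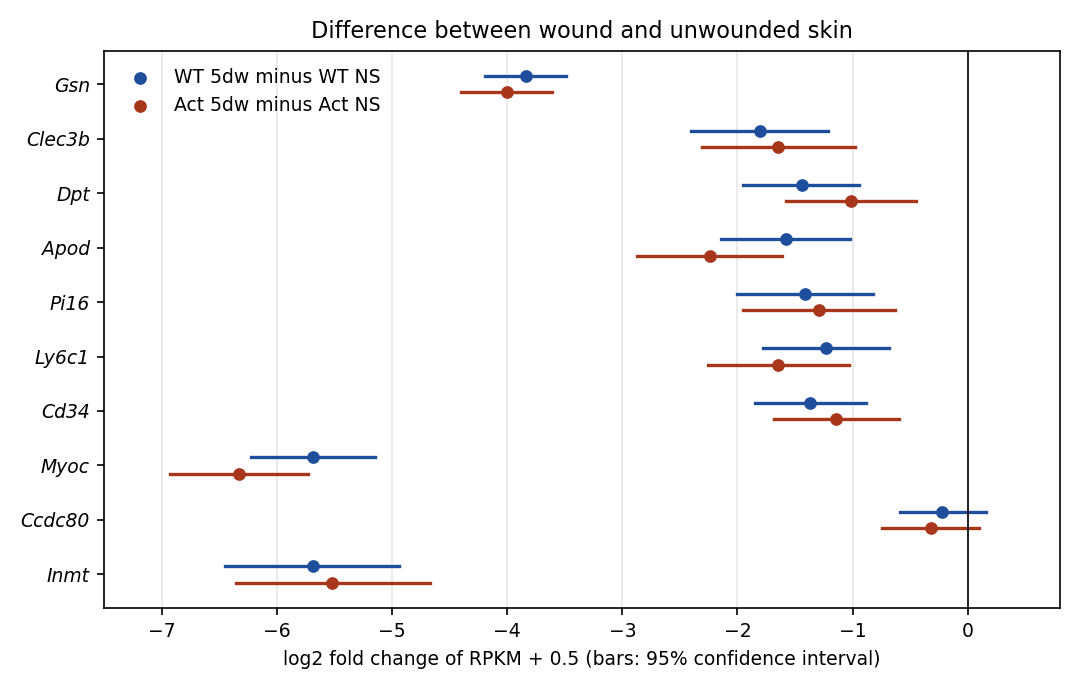
Difference of each gene between 5dw and NS as log2 fold change of RPKM + 0.5 in WT and Act mice, with points for estimates and bars for 95% confidence intervals. Myoc, Inmt and Gsn lie between -3.84 and -6.33, 6 genes between -1.01 and -2.24, and Ccdc80 near 0.

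The differences came in 3 sizes. Myoc, Inmt and Gsn had log2 fold changes of -3.84 or lower in both genotypes, 6 members lay between -1.01 and -2.24, and Ccdc80 stood apart. The median of the members was -1.51 in WT and -1.65 in Act, beside -0.40 and -0.31 over all genes tested. In WT 9 of 10 members passed the threshold as lower, as did 48.8% of all genes, and in Act 9 of 10 beside 36.5%. Nothing is read from these counts because that contrast was known when the list was made. All wound libraries lay below all NS libraries for 9 of 10 members and for 38.9% of all genes. Without Act 5dw replicate 3, Dpt (log2 fold change -0.81) and Cd34 (-0.75) were no longer among the members past it in Act.

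The sum of the keratinocyte and hair follicle markers was also lower in every wound library than in any NS library, although 2 of the 10 overlapped, Krt14 (192.4 to 493.0 RPKM in NS and 57.8 to 528.0 in wounds) and Krt5 (160.0 to 410.0 and 24.5 to 252.8), and their part in these differences was not tested. The sum was 1285, 2145 and 2319 RPKM in WT NS, 1292, 3076 and 4787 in Act NS, 125.4, 242.5 and 1052 in WT 5dw, with 266.6 and 308.0 for Act 5dw.

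Whether activin overexpression in keratinocytes alters these genes was tested by comparing Act with WT in each tissue. In NS 0 of 10 members passed the threshold (limma, Benjamini-Hochberg over all genes), as did 0.0167% of all genes, and with voom on the recovered reads the count was also 0. At an unadjusted p under 0.05 there was 1 member, Myoc, which was higher in Act NS by 0.54 on the log2 scale (SE 0.24, 95% confidence interval 0.00 to 1.08, limma adjusted p = 0.701). Its Act NS values of 144.5, 220.7 and 176.6 RPKM overlapped with 145.8 in WT NS 1. Pi16 was lower in Act NS by a point estimate of -0.39 (interval -0.98 to 0.20), and the remaining 8 estimates lay between -0.21 and 0.15. The median over all genes was -0.11. With median-ratio scaling the 10 estimates ran from -0.26 for Pi16 to 0.67 for Myoc, with Cd34 at -0.07. Between same-numbered libraries Cd34 was lower in Act NS in 3 of 3 pairs, as were 3714 of the 11979 genes, and Apod higher in 3 of 3, as were 704, while the other 8 differed in sign among pairs. With the replicate block Cd34 was at -0.21 (limma adjusted p = 0.718) and Apod at 0.09 (limma adjusted p = 0.861). All 10 members overlapped between the genotypes in NS, whereas 8.97% of all genes did not.

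In wounds 0 of 10 members passed, as did 0.0334% of all genes. The count was 0 also without adjustment (p under 0.05) and in voom. The estimate farthest from 0 was that of Apod, at -0.58 (SE 0.29, interval -1.21 to 0.05, limma adjusted p = 1), from 112.5, 179.8 and 99.8 RPKM for WT, with 109.7 and 65.0 for Act. The opposite end was held by Dpt at 0.31 (interval -0.25 to 0.88). The intervals of Pi16 (-0.93 to 0.39) and Cd34 (-0.52 to 0.56) left room for differences of either sign, so 3 libraries against 2 do not show that the genotypes were alike. No member separated the genotypes in wounds, although 23.0% of all genes did.

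Whether the wound difference itself depended on genotype was tested by the interaction. It passed for 0 of 10 members and for 0% of all genes. It was below an unadjusted p of 0.05 for 0 members and passed for 0 in voom. Apod (-0.66, interval -1.51 to 0.18) and Myoc (-0.64, interval -1.45 to 0.17) had the most negative estimates, and Dpt (0.43, interval -0.32 to 1.19) the most positive. For Gsn the interval was -0.69 to 0.36.

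**Figure D3:**
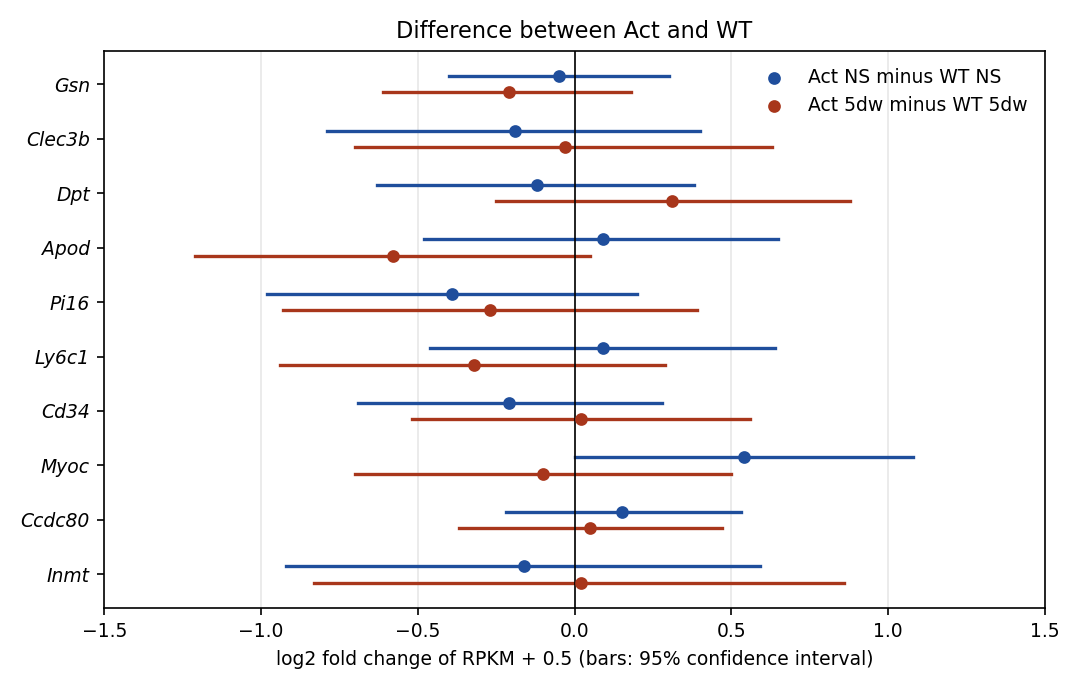
Difference of each gene between Act and WT as log2 fold change of RPKM + 0.5, in NS and in 5dw, with points for estimates and bars for 95% confidence intervals. The estimates lie between -0.58 and 0.54, and the interval of Myoc in NS starts at 0.00 while the others span 0.

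Among the wound libraries, the same few held the extremes of the members. WT 5dw 2 was the highest wound library for 6 members and Act 5dw 1 for the other 4, whereas these were the highest for 19.0% and 26.4% of all genes. The lowest was WT 5dw 3 for 4 members and Act 5dw 3 for 6. The highest and the lowest lay in these libraries together for all 10 members, for 23 of the 46 related genes named below and for 28.5% of all genes, a pattern noticed after the values were seen. In WT 5dw 2 the members were at a median of 1.58 times the mean of the other 2 WT 5dw libraries, from 0.969 for Inmt to 1.93 for Ly6c1 and 2.02 for Pi16, against a median of 0.981 over all genes. Without this library the wound value of Pi16 in WT was 130.2 RPKM on average. Among the NS libraries, Act NS 2 was the highest for 6 members and for 11.8% of all genes.

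**Figure D4:**
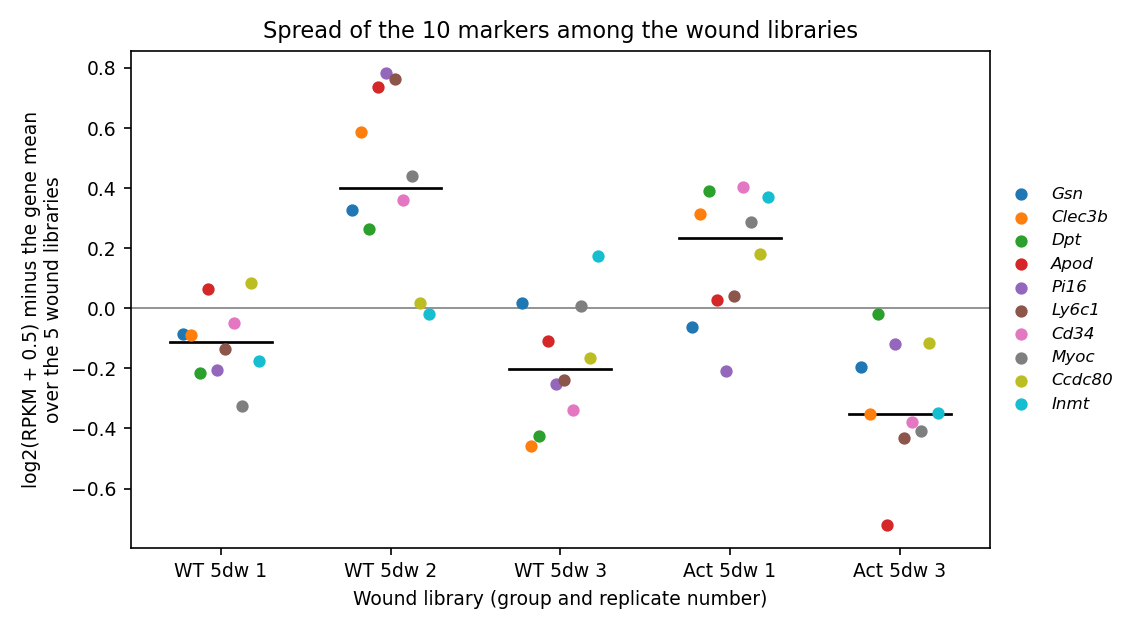
Deviation of each of the 10 genes in each of the 5 wound libraries from the mean of that gene over them, on the log2(RPKM + 0.5) scale, with black lines for the median of the 10. Pi16, Ly6c1 and Apod lie between 0.738 and 0.782 above their mean in WT 5dw 2, and Apod lies at -0.722 in Act 5dw 3.

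Related genes that are not members were compared next, in 3 lists also drawn up with results of these libraries known, so their counts and calls in the wound contrast describe these libraries and are no independent evidence of a direction. Genes are named mainly by their difference in that contrast, so their wound differences are given without p-values. The first held 16 genes of Pi16+ adventitial fibroblasts, the second 16 other genes of resting dermal fibroblasts, and the third 14 genes tied to growth arrest. All 46 were tested, and 31 fell and 4 rose in WT wounds, while 30 fell and 3 rose in Act wounds (limma, adjusted p under 0.05), beside the 48.8% and 36.5% of all genes called lower and 9.45% and 9.04% called higher. With median-ratio scaling the counts were 22 lower and 11 higher in WT, beside 21.2% and 23.4% of all genes, and 22 lower and 8 higher in Act, beside 20.4% and 20.3%. The growth-arrest list then had 5 lower and 7 higher in WT and 4 of each in Act, the adventitial list 8 lower and 3 higher in WT and 7 and 3 in Act, and the other list 9 lower and 1 higher in WT and 11 and 1 in Act.

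Of the adventitial list, 11 of 16 fell and 1 rose in WT, and 10 fell and 1 rose in Act, with a median log2 fold change of -1.27 and -1.09. Pcolce2, an enhancer of procollagen C-proteinase, fell from 91.5 ± 10.1 RPKM (SD, n = 3) in WT NS to 4.69 ± 1.75 (SD, n = 3) in WT 5dw (log2 fold change -4.19, SE 0.22). Its Act value was -4.28 (SE 0.24). Scara5, a ferritin receptor, fell in WT (log2 fold change -2.60) and in Act (-2.48), and so did Efhd1, a calcium-binding mitochondrial protein (-2.45 and -2.02). Without Act 5dw replicate 3, which leaves 1 Act 5dw library, the Act values of Efhd1, Dpp4 and Cd55 were -1.32, -0.71 and -0.52. With both libraries they were -2.02, -1.22 and -0.97. Procr (-1.26) and Adgrd1 (-0.62) stayed near their values of -1.20 and -0.63. The calls of these genes in Act depended on that library. Mfap5, a microfibril protein, rose from 83.7 ± 10.4 RPKM to 146.2 ± 20.0 (SD, n = 3 each) in WT (log2 fold change 0.80, SE 0.19) and by 1.09 in Act (SE 0.21). The scavenging chemokine receptor Ackr3 did not pass, at 0.03 in WT and 0.21 in Act, although with median-ratio scaling it did, at 0.51 and 0.58.

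Of the other resting-fibroblast genes, 13 of 16 fell and 0 rose in each genotype, with a median of -1.08 in WT and -1.27 in Act. Abca8a, a lipid transporter, had the largest fall of this list, from 33.8 ± 4.12 to 2.44 ± 0.401 RPKM in WT (SD, n = 3 each, log2 fold change -3.55, SE 0.27) and in Act (-3.22). Sparcl1, a matricellular protein, fell too (-2.90 in WT and -3.10 in Act), and so did Gas6, the ligand of the TAM receptors (-2.31 and -2.76). Serpinf1 and Nid1 did not pass in either genotype, at 0.32 and 0.20 and at -0.33 and 0.10. With median-ratio scaling Serpinf1 passed as higher, at 0.80 in WT and 0.57 in Act.

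Of the growth-arrest genes, 7 of 14 were lower and 3 higher in WT, where 48.8% and 9.45% of all genes were, and 7 were lower and 2 higher in Act, where 36.5% and 9.04% were. The 3 genes called higher in WT all lost this call without WT NS 3. Their log2 fold changes were then 0.33 to 0.69, against 0.43 to 0.75 with all libraries. The list had a median of -0.30 and -0.31 beside -0.40 and -0.31 over all genes. Zbtb16, which encodes a transcription factor, fell in WT (-2.75) and in Act (-2.84), as did the forkhead factor gene Foxo1 (-2.21 and -2.10). The wound values of Zbtb16 were 0.191 to 0.673 RPKM, so the pseudocount of 0.5 pulls its fold changes toward 0. Over the other settings its WT value ran from -3.77 to -2.24. Txnip, the thioredoxin-interacting protein, fell as well (-2.74 and -2.69). Cdkn1c, which encodes the cyclin-dependent kinase inhibitor p57, passed as higher by 0.75 in WT (SE 0.25) and by 1.44 in Act (SE 0.28). In WT this call was lost when any of WT NS 2, WT NS 3 or WT 5dw 2 was left out, at log2 fold changes of 0.58 to 0.69. Gas1 passed as 0.71 higher in WT (SE 0.26), and did not pass in Act, at 0.28. Its WT call was lost when any of 6 libraries was left out, at log2 fold changes of 0.49 to 0.71.

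**Figure D5:**
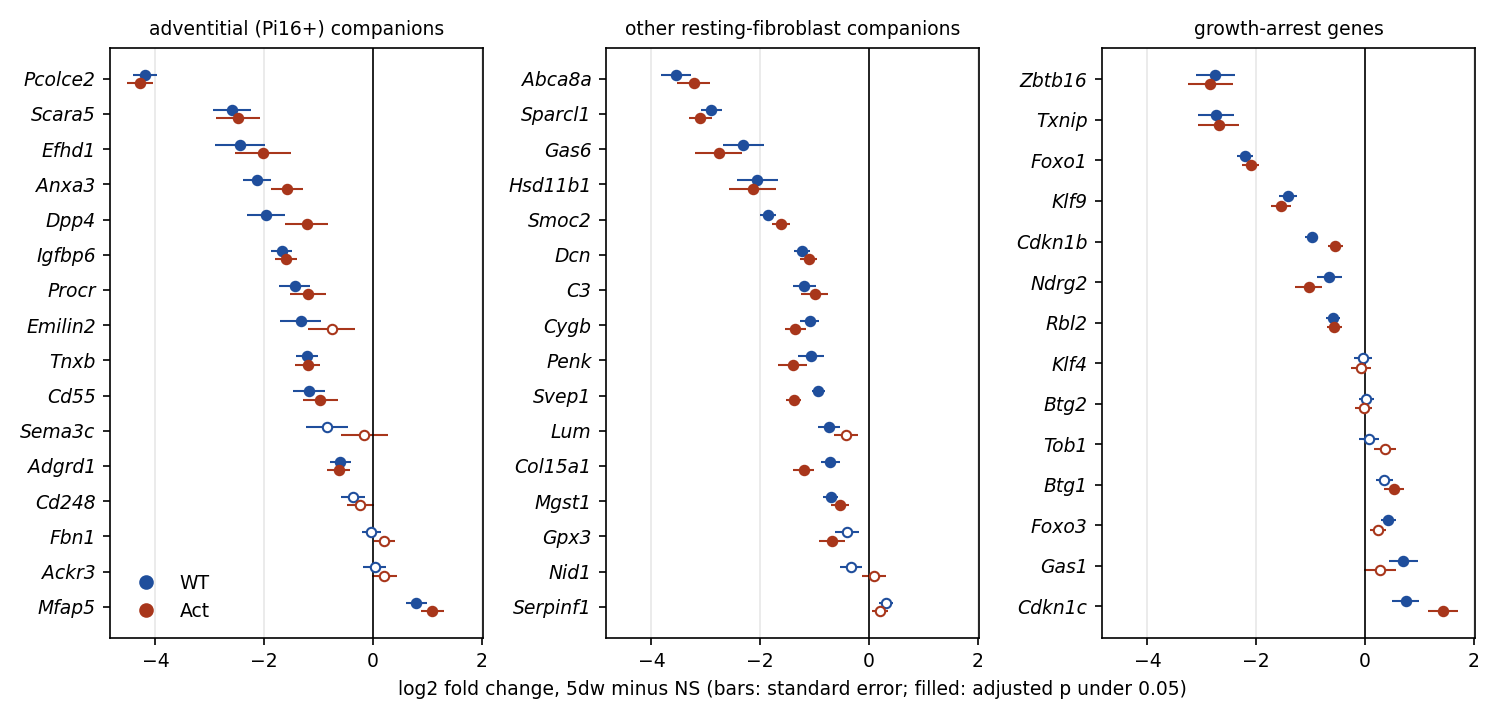
Difference between 5dw and NS of the 46 related genes in 3 lists, as log2 fold change of RPKM + 0.5 in WT and Act, with bars for the standard error and filled points for an adjusted p under 0.05. Pcolce2 lies at -4.19 in WT and -4.28 in Act, and Mfap5 on the other side of 0 at 0.80 and 1.09.

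Between genotypes, 0 of the 46 passed in NS, in wounds or in the interaction (limma and voom), and 2 in each were below an unadjusted p of 0.05.

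Genes with profiles like those of 3 members were found by the root mean square distance of their centred log2(RPKM + 0.5) over the 11 libraries, among genes with a mean of at least 10 RPKM. For Pi16 they were Plpp3, Fyn and Hdac7, each at a distance of 0.21. Plpp3 encodes a lipid phosphatase and averaged 452 RPKM in NS and 188 in wounds. For Dpt the distances were shorter, at 0.10 for Gpc3, a glypican, 0.15 for Ldb2 and 0.16 for Smpdl3a. For Myoc they were longer, at 0.53 for the aldehyde dehydrogenase gene Aldh3a1, 0.67 for Cyp2f2 and 0.76 for Krt10. Krt10 is a keratin of the upper epidermis, and averaged 807 RPKM in NS and 14.8 in wounds. Among NS libraries Krt10 was highest in Act NS 3, at 1685 RPKM, and Myoc in Act NS 2, at 220.7 RPKM. The distance includes the difference between NS and wounds, so genes with a like difference come out near. For Krt10 that log2 fold change was -5.08 in WT and -6.32 in Act, beside -5.69 and -6.33 for Myoc.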

How the data were processed

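The authors sequenced RNA of sorted fibroblasts, mapped the reads to the mouse genome GRCm38 with CLC Genomics Workbench and deposited a table of RPKM values for 11 libraries; edgeR is also named in the submitters' processing notes. RPKM scale reads to exon length and to mapped reads and are not counts, so limma 3.58.1 (R 4.3.3; lmFit, eBayes with trend) was applied to log2(RPKM + 0.5) of the 11979 genes with at least 1 RPKM in at least 2 libraries, with 1 mean per group over all 11 libraries and Benjamini-Hochberg adjustment per comparison (threshold 0.05). A pseudocount understates changes of low genes. In these values 11979 of 11979 genes came at whole multiples of 1 read (within 0.03), 7378 of them at the GENCODE M21 length and 4601 at a length found from the values, which gave the depth of 18649321 to 39702138 reads and the input for limma-voom as an alternative. For Pi16, Clec3b, Cd34 and Ccdc80 that length differed from the GENCODE M21 one.

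An exact permutation test cannot go below p = 0.1 with these groups. Groups came from the labels. Replicates of a group differed beyond sampling noise in every pair, and p-values measure the spread between pools. The labels do not state what the replicate numbers mark. Same-numbered deviations correlated at 0.55, 0.42 and 0.33 in the NS genotype comparison, where unlike numbers reached 0.19. In WT wounding they correlated at 0.19, 0.12 and 0.11, where unlike numbers reached 0.08, too small a gap to establish pairing. Same-numbered values for Act 5dw were 0.02 and 0.14 with Act NS, and -0.08 and 0.19 with WT 5dw. Unlike numbers there reached 0.14 and 0.31. Alternatives changed the pseudocount, filter, scaling, libraries, replicate block and test.

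The members and related lists were chosen with earlier results of these data known. Text names the 10 members, Inhba, Ly6a, Ly6c2, the 3 lowest and 2 highest of each related list by mean wounding difference, 3 genes nearest to each of Pi16, Dpt and Myoc, and defining cell type markers. It also names Dpp4, Cd55, Procr and Adgrd1, whose calls in Act depended on a library. Promoter windows and motif matches came from RefSeq (GRCm38.p6), 250 bases before each start; 8 of 10 members matched, in 11 windows. Bases inside annotated exons were not printed.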

Additional observations from a re-analysis of the deposited data

How the results depend on the processing

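Over 21 other settings, the 9 members past the threshold as lower in WT wounds stayed past it, which is no independent evidence (48.8% of all genes were lower as reported, and 21.2% with median-ratio scaling), and Ccdc80 joined them without WT NS replicate 2 (log2 fold change -0.40). In Act, where these shares were 36.5% and 20.4%, the 9 stayed past it except Dpt with median-ratio scaling (-0.64) and Dpt and Cd34 without Act 5dw replicate 3. Median-ratio scaling moved the medians of the members to -1.03 in WT and -1.28 in Act, and the counts of related genes called higher to 11 and 8. Without a filter on low values 2 related genes were called higher in WT, and leaving out 1 library gave 1 to 5. The replicate block left 9 members called lower in each genotype, with medians of -1.51 and -1.51, and 32 and 29 related genes lower, beside 50.9% and 38.0% of all genes lower, and changed no call of a member. No genotype or interaction call appeared under any setting, although 42 of 620 such estimates for members changed sign. Of 420 wounding values 2 did so, both of Ccdc80 with median-ratio scaling. Depth limits the wound values of Inmt and Myoc the most.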
